A study of Mus musculus with 8 samples.

Results

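The genes described here mark and build blood and lymphatic vessels in subcutaneous fat. They are 35 genes taken from a list of endothelial and angiogenic genes, out of 18193 genes that a probe set of the array names alone. There are 25 genes of blood endothelium, 3 of lymphatic endothelium and 7 angiogenic ligands and neuropilins. The fat came from male diabetic mice whose labels give an age of 8 weeks without saying whether at the start of dosing or at harvest. All animals were dosed with water by gavage on 5 days a week for 10 weeks. The 4 placebo mice (numbers 6, 8, 10 and 14) received water alone. In the 4 NBC mice (numbers 5, 9, 11 and 13) the water carried niacin-bound chromium, trivalent chromium complexed with nicotinic acid, dosed at 10 mg/kg. The strain of the diabetic mice is not given in the sources used here. Each mouse gave 1 Affymetrix Mouse Genome 430 2.0 array, and a gene is represented by the probe set with the highest mean log2(signal + 26) over the 8 arrays.

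Fat is a densely vascularised tissue in which nearly every adipocyte touches a capillary. Endothelial cells are held together by cadherin and claudin junctions, are specified by ETS and SOXF transcription factors, and read growth signals through receptor tyrosine kinases. Vascular endothelial growth factors (VEGFs), made largely by the cells around the vessel, act through Kdr and Flt1 on blood endothelium and through Flt4 on lymphatic endothelium. Angiopoietins act through Tek and govern how stable the vessel is.

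The median signal of an array was 285.5 to 329.6. The adipocyte markers that could be measured (5 of 7 listed) were bright in every mouse, with Adipoq between 83886 and 108996. All 25 blood endothelial genes lay above the filter on dim probe sets, whose limit is a signal of 275, as did 34 of the 35 genes. Only Prox1, a transcription factor of lymphatic identity, fell below it and was not tested. Transcripts of fast skeletal muscle were far higher in NBC mice 5, 11 and 13 than in NBC mouse 9 and the placebo mice. With 4 arrays a group, the precision is limited by their number. In whole tissue, fewer endothelial cells and less RNA per endothelial cell cannot be told apart.

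No endothelial or angiogenic gene passed the test of a difference between NBC and placebo mice after adjustment. In limma's moderated test 0 of the 34 genes tested passed the Benjamini-Hochberg threshold, with adjusted p-values from 0.778 to 0.998. Of all 22519 probe sets tested 0.0% passed (smallest adjusted p = 0.653). The VEGF receptor Flt1 was the 1 gene with an unadjusted p under 0.05, a mark that 6.22% of all probe sets reached. In 0 of the 34 genes were the signals of the 2 groups free of overlap, against 3.85% of all probe sets. Of the 35 genes, 18 were on the higher side in NBC mice and 17 on the lower side, where 47.9% of all probe sets tested were on the higher side. The log2 difference is NBC minus placebo throughout, and its median over the 35 genes was 0.0021, beside -0.010 for all probe sets tested. All 35 differences were smaller than 0.5. For 32 of the 34 genes the 95% interval lay between -1 and 1. The exceptions were Kdr and Aplnr, with upper bounds of 1.19 and 1.25.

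**Figure D1:**
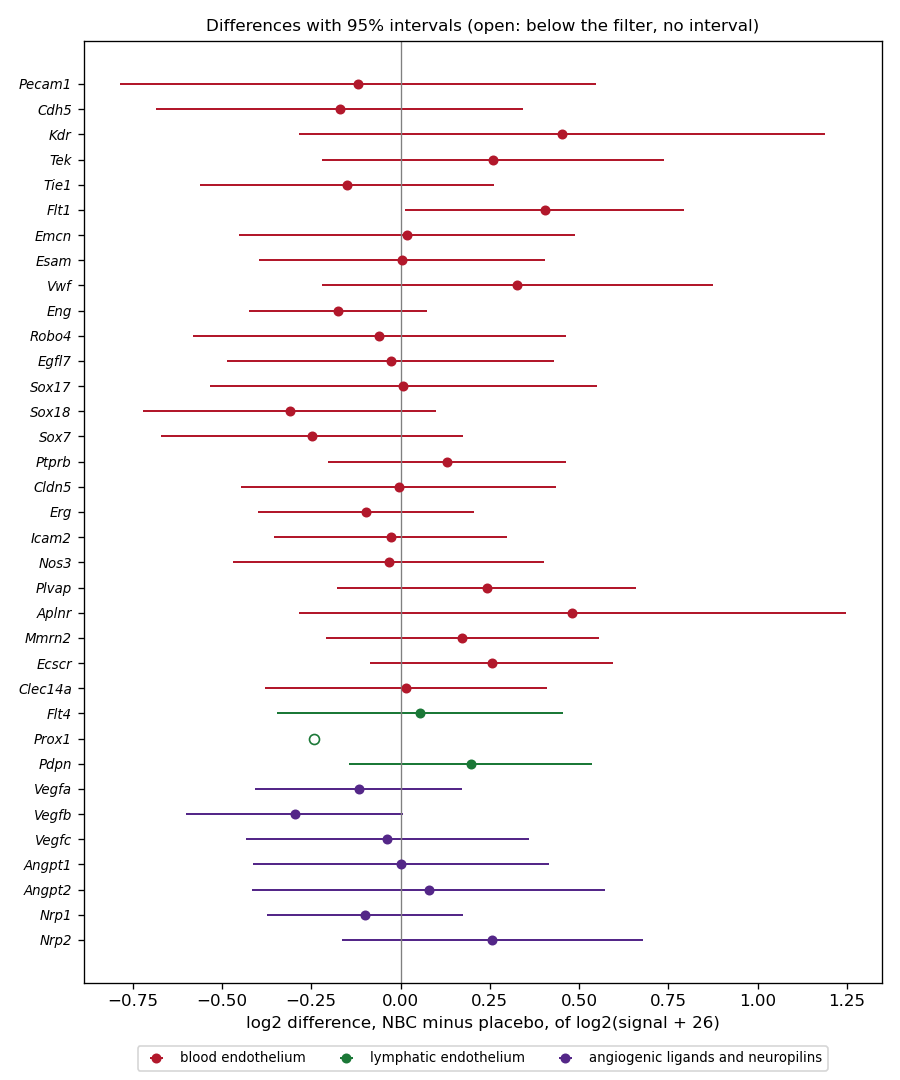
The log2 difference of each of the 35 genes (NBC minus placebo, in log2(signal + 26) units, 4 mice a group) is drawn with its 95% interval from limma, coloured by group of genes, and Prox1 is open because it lay below the filter. Every interval but that of Flt1 crosses 0, and Kdr and Aplnr have the intervals that reach beyond 1.

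The median log2 difference was 0.0050 over the 25 blood endothelial genes, 0.054 over the 3 lymphatic genes and -0.037 over the 7 ligands and neuropilins. With 1 mouse left out the median of blood endothelium ranged from -0.061 to 0.091. The genes of blood endothelium were split, 13 above and 12 below 0. The extremes were -0.31 (Sox18) and 0.48 (Aplnr).

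Promoter sequences were matched for 19 of the 35 genes (25 windows, some genes having several starts). Those of 4 endothelial receptors are shown. They are receptors of blood endothelium described in what follows, both VEGF receptors among them. They were picked because each holds a motif of the ETS family, the factors that specify endothelium, so they do not stand for all windows. The receptors Tie1, with 2 such matches, and Tek, with 0, are not shown. The windows run 5′ to 3′ from 250 bases before to 50 after the RefSeq transcription start in build GRCm38.p6, with matches to CCGGAA or AGGAAG on either strand in capitals. The promoters of Kdr (chr5:75978406-75978705, minus strand), Flt1 (chr5:147725962-147726261, minus strand), Eng (chr2:32646345-32646644, plus strand) and Robo4 (chr9:37401722-37402021, plus strand) read:
Kdr: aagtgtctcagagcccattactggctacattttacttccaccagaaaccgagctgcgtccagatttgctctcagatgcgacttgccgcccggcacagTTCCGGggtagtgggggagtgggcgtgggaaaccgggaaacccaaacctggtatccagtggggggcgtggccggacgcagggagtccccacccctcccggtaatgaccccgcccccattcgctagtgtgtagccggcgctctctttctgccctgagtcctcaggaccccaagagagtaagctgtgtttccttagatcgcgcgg
Flt1: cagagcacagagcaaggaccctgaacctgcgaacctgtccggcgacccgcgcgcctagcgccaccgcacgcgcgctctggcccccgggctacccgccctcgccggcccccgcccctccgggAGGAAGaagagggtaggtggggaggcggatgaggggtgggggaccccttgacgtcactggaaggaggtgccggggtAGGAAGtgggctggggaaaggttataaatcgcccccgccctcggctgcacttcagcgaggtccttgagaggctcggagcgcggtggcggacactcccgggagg
Eng: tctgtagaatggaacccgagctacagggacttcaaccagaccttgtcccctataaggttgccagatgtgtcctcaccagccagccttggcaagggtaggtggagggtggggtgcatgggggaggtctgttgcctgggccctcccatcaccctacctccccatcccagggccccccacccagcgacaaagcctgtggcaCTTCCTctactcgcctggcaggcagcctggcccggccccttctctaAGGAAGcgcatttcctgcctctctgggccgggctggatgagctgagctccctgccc
Robo4: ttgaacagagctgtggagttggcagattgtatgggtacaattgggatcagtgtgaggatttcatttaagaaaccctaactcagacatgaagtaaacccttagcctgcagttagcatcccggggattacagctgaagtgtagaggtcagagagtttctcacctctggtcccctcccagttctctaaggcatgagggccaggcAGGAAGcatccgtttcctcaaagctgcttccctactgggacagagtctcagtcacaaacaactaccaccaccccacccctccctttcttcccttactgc

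The match in Kdr begins 153 bases before the start, those in Flt1 129 and 53, those in Eng 52 and 6, and that in Robo4 49. At least 1 of these ETS motifs, which share the core GGAA but differ in the letter before it, was found in 9 of the 19 genes (Kdr, Tie1, Flt1, Emcn, Eng, Robo4, Egfl7, Erg and Nrp1) and in 10 of the 25 windows. Of all 32851 promoter windows of this length, 45.2% held one. AGGAAG stood in 9 of the 25 windows (35.4% of all windows) and CCGGAA in 1 (14.9%). The SOX motif ACAAT stood in 6 of the 25 (31.0%) and the GATA motif GATAA in 5 (25.4%). These are matches of letters in a fixed window and do not show binding.

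Among the receptors of blood endothelium, Flt1 (probe set 1451756_at), a VEGF receptor that also sequesters the ligand in a soluble form, read 1383, 1596, 2056 and 1723 in placebo mice 6, 8, 10 and 14. In NBC mice 5, 9, 11 and 13 it read 2238, 1848, 2853 and 2061. Each NBC animal lay above 3 of the placebo mice, and placebo mouse 10 lay between NBC mice 9 and 13. The log2 difference was 0.40 (SE 0.17, limma unadjusted p = 0.044, adjusted p = 0.778). The other 3 probe sets of Flt1 above the filter gave 0.013 (SE 0.17), 0.11 (SE 0.15) and -0.022 (SE 0.25), so the difference rested on 1 of 4 probe sets. With the mean of its probe sets Flt1 was 0.125 (limma unadjusted p = 0.385). It was 0.28 without NBC mouse 11 and 0.31 without placebo mouse 6. With any 1 mouse left out other than placebo mouse 10 or NBC mouse 9, its unadjusted p was above 0.05.

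Kdr (1449379_at), the main signalling receptor for VEGF on blood endothelium, had a mean signal of 2103 ± 954 (SD, n = 4) under placebo and of 2728 ± 657 (SD, n = 4) under NBC. Placebo mice 6, 8, 10 and 14 read 1070, 1902, 3377 and 2062, and NBC mice 5, 9, 11 and 13 read 1895.5, 3085, 3389 and 2541. The log2 difference was 0.45 (SE 0.33). The spread came from placebo mouse 6, the lowest of all 8, and placebo mouse 10, nearly as high as the highest NBC mouse. Without placebo mouse 6 the difference was 0.17, and without placebo mouse 10 it was 0.71.

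Aplnr (1438651_a_at), the receptor for apelin found on venous and sprouting endothelium, had the widest difference of the 35 genes, 0.48 (SE 0.34). Placebo mice 6, 8, 10 and 14 read 8265, 6949, 6662 and 8943. NBC mice 5, 9, 11 and 13 read 20842, 8772, 12124 and 5880. NBC mouse 5 stood far above all others, while NBC mouse 13 was the lowest of all 8. The difference was 0.16 without NBC mouse 5 and 0.77 without NBC mouse 13. The second probe set of Aplnr, 1423037_at, gave 0.33 (SE 0.16).

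**Figure D2:**
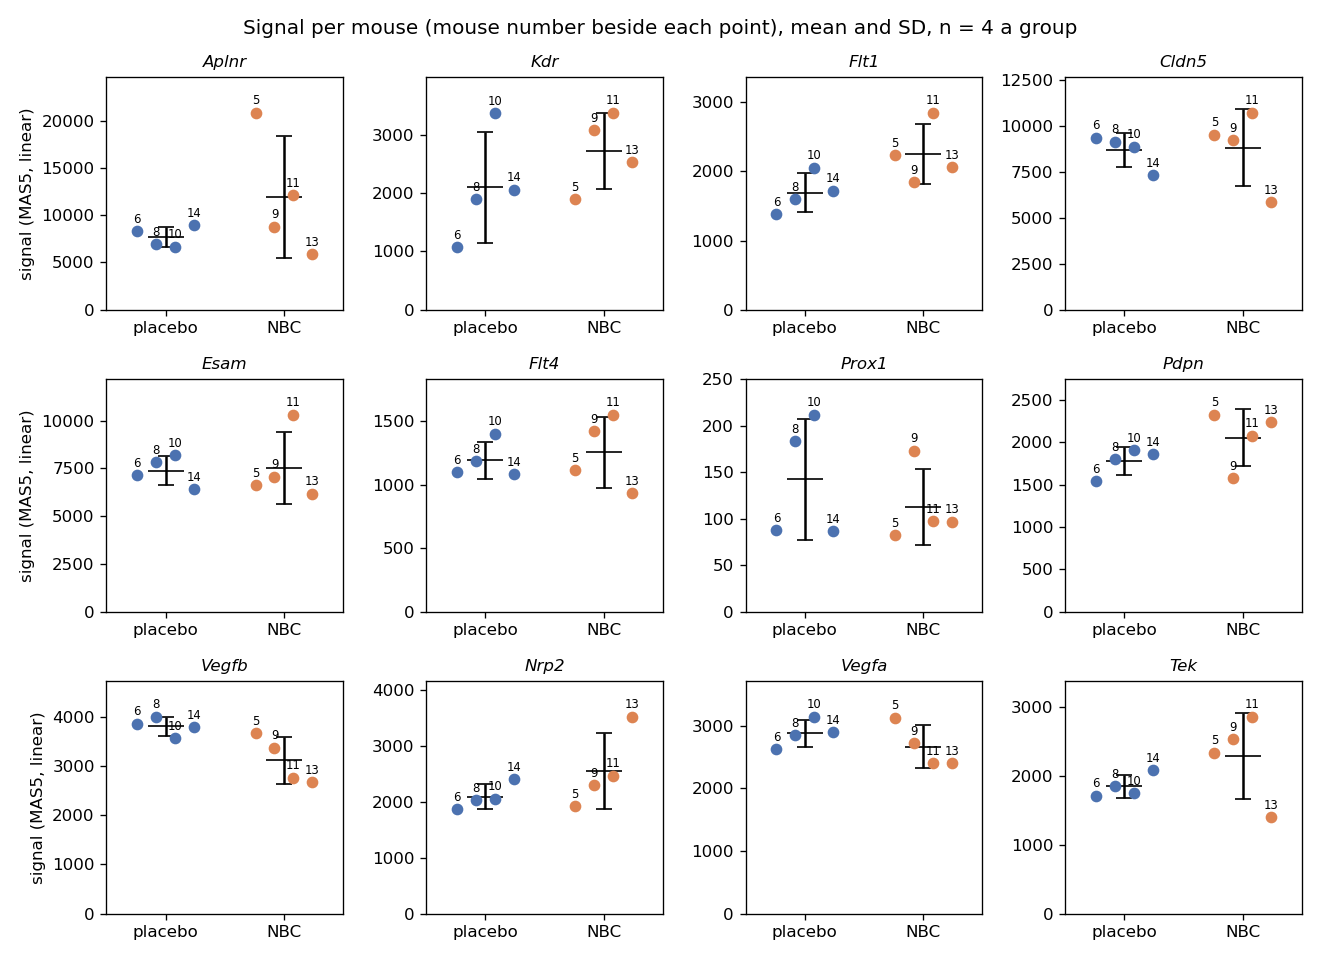
Linear signals of 12 genes are shown for each mouse, with the mouse number beside the point and the mean and SD of 4 mice as bars; axes start at 0 and differ between genes. The groups overlap in every panel, Aplnr is set by NBC mouse 5 at 20842, and Tek, Cldn5 and Flt4 are lowest in NBC mouse 13.

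The angiopoietin receptor Tek had a mean signal of 1845 ± 168 (SD, n = 4) under placebo and of 2281 ± 624 (SD, n = 4) under NBC, a log2 difference of 0.26 (SE 0.21). NBC mice 5, 9 and 11 read 2332, 2531 and 2857, above every placebo mouse (1708 to 2081), whereas NBC mouse 13 read 1403, below all of them. Without NBC mouse 13 the difference was 0.47. Its partner Tie1, an orphan receptor that modulates Tek, differed by -0.15 (SE 0.18). The TGF-beta co-receptor Eng, endoglin, averaged 4473 ± 132 and 3971 ± 352 (SD, n = 4 each), a difference of -0.17 (SE 0.11). Only NBC mouse 9 (4389) lay within the placebo range of 4275 to 4546, and Eng had the smallest standard error of the 34 genes. Its second probe set above the filter gave 0.089 (SE 0.16). The guidance receptor Robo4, which restrains vessel leakage, differed by -0.059 (SE 0.23).

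Among adhesion and junction genes, Esam (1460356_at), an adhesion molecule of endothelial tight junctions, gave signals of 7149, 7814, 8183 and 6405 for placebo mice 6, 8, 10 and 14, then 6610, 7057, 10314 and 6168 for NBC mice 5, 9, 11 and 13, a difference of 0.0050 (SE 0.18). Cldn5 (1417839_at), the claudin that seals endothelial tight junctions, read 9359, 9135, 8876 and 7329 in the placebo mice and 9529, 9214, 10724 and 5832 in the NBC mice, in the same orders. Its difference was -0.0045 (SE 0.19). In both genes NBC mouse 11 was the highest and NBC mouse 13 the lowest of all 8 mice, so that the NBC range enclosed the placebo range.

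Cdh5, VE-cadherin of the adherens junction, differed by -0.17 (SE 0.23), with NBC mouse 13 at 2683 and the other 7 mice at 4506 to 5929. Without NBC mouse 13 its difference was 0.063. Pecam1, the platelet and endothelial adhesion molecule, differed by -0.12 (SE 0.29) and ranged from 1837 (NBC mouse 5) to 5435 (NBC mouse 9), which placed the extremes of all mice inside the NBC group. Icam2, a leukocyte ligand on resting endothelium, differed by -0.027 (SE 0.14). The endothelial phosphatase Ptprb, which dephosphorylates Tek, differed by 0.13 (SE 0.15). Its second probe set above the filter gave 0.43 (SE 0.23), and the mean of all its probe sets gave 0.47 (limma unadjusted p = 0.022). That mean takes in 1453908_at, which lay below the filter. This probe set averaged 79 in placebo and 152 in NBC mice and gave 0.855. The surface proteins Ecscr and Clec14a differed by 0.25 (SE 0.15) and 0.016 (SE 0.17).

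Of the transcription factors of endothelial identity, Sox18, Sox7 and Sox17, the 3 SOXF factors, differed by -0.31 (SE 0.18), -0.25 (SE 0.19) and 0.0073 (SE 0.24), and the ETS factor Erg by -0.096 (SE 0.13). Sox7 turned to 0.139 and Sox17 to -0.104 with the mean of all their probe sets, and Sox17 to -0.0049 with arrays centred on their medians. The other probe set of Sox7, 1432495_at, lay below the filter. It averaged 98 in placebo and 150 in NBC mice and gave 0.525. Sox18 had a mean signal of 2820 ± 379 (SD, n = 4) under placebo and of 2294 ± 491 (SD, n = 4) under NBC, with NBC mouse 5 lowest at 1666 and NBC mice 9 (2864) and 13 (2367) inside the placebo range. Sox17 read 1345.5 in NBC mouse 13 and 1795 to 2887 in the other 7 mice.

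Vwf, the clotting factor stored in endothelial granules, averaged 2011 ± 676 and 2480 ± 561 (SD, n = 4 each), a difference of 0.33 (SE 0.24) that became 0.53 without placebo mouse 10 and 0.18 without placebo mouse 6. Plvap, which forms the diaphragms of fenestrae and caveolae, differed by 0.24 (SE 0.19). Mmrn2, a matrix protein that binds Clec14a, differed by 0.17 (SE 0.17). Nos3, the endothelial nitric oxide synthase, averaged 3444 ± 872 and 3315 ± 470 (SD, n = 4 each), a difference of -0.032 (SE 0.19). Egfl7, a secreted factor of sprouting vessels, differed by -0.027 (SE 0.20), and the sialomucin Emcn of capillaries and veins by 0.019 (SE 0.21).

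Of the lymphatic genes, Flt4 (1444052_at), the receptor for Vegfc, read 1097, 1185, 1401 and 1082 in placebo mice 6, 8, 10 and 14. It read 1114, 1419, 1551 and 934 in NBC mice 5, 9, 11 and 13, a difference of 0.054 (SE 0.18) with NBC mice at both ends of the order. Pdpn (1419309_at), a mucin-type protein of lymphatic endothelium that fibroblasts also make, read 1541, 1798, 1906 and 1864 in the placebo mice. In the NBC mice it read 2328, 1576, 2080 and 2242, a difference of 0.20 (SE 0.15). NBC mice 5, 11 and 13 lay above all placebo mice and NBC mouse 9 near the lowest. Prox1 (1421336_at) read 87.5, 183.7, 212.0 and 86.5 in the placebo mice and 82.5, 173.2, 97.0 and 96.8 in the NBC mice. These signals lie below the filter limit of 275, and no test was made.

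Among the angiogenic ligands, Vegfb (1451803_a_at), a Flt1 ligand linked to fatty acid uptake, had the next smallest unadjusted p after Flt1. It gave signals of 3867, 4009, 3566 and 3793 for placebo mice 6, 8, 10 and 14, then 3670, 3375, 2769 and 2670 for NBC mice 5, 9, 11 and 13. Of the NBC animals, number 5 lay above placebo mouse 10, and the other 3 lay below every placebo mouse. The means were 3809 ± 185 and 3121 ± 481 (SD, n = 4 each), which is a difference on the log2 scale of -0.30 (SE 0.13, limma unadjusted p = 0.054, adjusted p = 0.778). Its 95% interval ran from -0.60 to 0.0063. Vegfb had a single probe set.

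Vegfa (1420909_at), the principal growth factor for blood vessels, read 2628, 2846, 3145 and 2899 in the placebo mice and 3126, 2724, 2402 and 2400 in the NBC mice. The difference was -0.12 (SE 0.13), and NBC mice 11 and 13 lay below all others while NBC mouse 5 was nearly the highest. Vegfc, the lymphatic growth factor, averaged 7971 ± 1136 and 7822 ± 1503 (SD, n = 4 each), a difference of -0.037 (SE 0.18). Its other 2 probe sets gave -0.045 (SE 0.16) and -0.059 (SE 0.21).

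Angpt1, the Tek agonist made by mural and stromal cells, differed by 0.0021 (SE 0.18), and Angpt2, the context-dependent Tek antagonist released by activated endothelium, by 0.079 (SE 0.22). Angpt2 read 2106 in NBC mouse 13 and 1060 to 1567 in the other 7 mice.

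The neuropilins are VEGF and semaphorin co-receptors that stromal and immune cells also carry. Nrp2 (1435349_at) gave signals of 1868, 2036, 2061 and 2405 for placebo mice 6, 8, 10 and 14, then 1925, 2305, 2471 and 3528 for NBC mice 5, 9, 11 and 13. The difference was 0.26 (SE 0.19), and NBC mouse 13 stood apart at the top. Other probe sets of Nrp2 above the filter gave -0.14 (SE 0.15) and 0.21 (SE 0.29). Nrp1 (1448943_at) averaged 20170 ± 1245 and 18892 ± 2184 (SD, n = 4 each), a difference of -0.099 (SE 0.12).

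Different probe sets of the same gene did not always have the same sign. The 35 genes had 67 probe sets that name them alone, 58 of them above the filter, and 16 genes had only 1. Of the 14 genes with more than 1 above the filter, 7 had at least 1 that went the other way from the probe set standing for the gene (Cdh5, Flt1, Eng, Egfl7, Sox17, Nrp1 and Nrp2). In some of them the values of differing sign lay within their SE of 0, such as -0.17 (SE 0.23) and 0.086 (SE 0.26) for Cdh5. The probe set 1457198_at of Nrp1 gave 0.53 (SE 0.14, limma unadjusted p = 0.0051), against -0.099 for the brightest one. It was the only 1 of the 58 without overlap between groups, beside 3.85% of all probe sets tested. The dimmer probe set of Clec14a, 1419468_at, gave 0.55 (SE 0.24, limma unadjusted p = 0.047). With Flt1 these made 3 of 58 probe sets under an unadjusted p of 0.05, a mark that 6.22% of all probe sets tested reached. After adjustment over all probe sets 0 of the 58 passed.

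**Figure D3:**
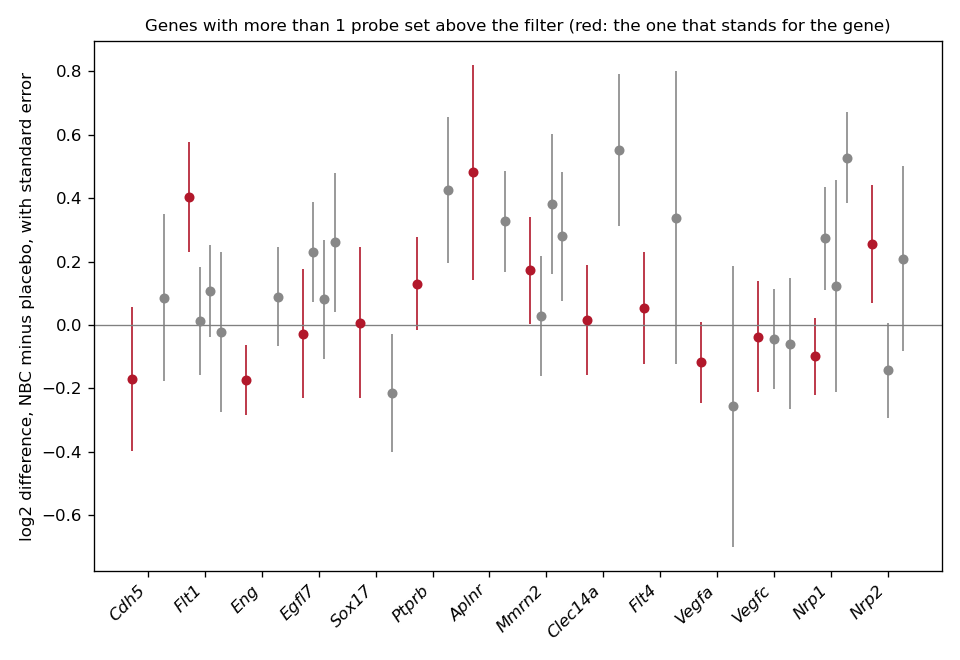
For the 14 genes with more than 1 probe set above the filter, each point is the log2 difference (NBC minus placebo) of 1 probe set with its standard error, and red marks the brightest one, which stands for the gene. Flt1 is far from 0 in 1 of 4 probe sets, and the probe sets of Nrp1 run from -0.099 to 0.53.

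Mice of the same group differed from each other, and these differences ran through many of the blood endothelial genes together. This was noticed in the values and is given as a description. NBC mouse 13 was the lowest of the 8 mice in 15 of the 25 blood endothelial genes, among them Cdh5, Tek, Eng, Esam, Cldn5, Sox17 and Erg, where it was the lowest in 15.6% of all probe sets tested. NBC mouse 11 was the highest in 10 of the 25, among them Kdr, Flt1, Tek, Vwf, Esam and Cldn5, against 11.6% of all probe sets. The mean deviation over the 25 genes from their 8-mouse mean was -0.28 (log2) in NBC mouse 13 and 0.24 in NBC mouse 11, with NBC mice 5 and 9 at -0.012 and 0.16. In placebo mice 6, 8, 10 and 14 it was -0.16, -0.048, 0.18 and -0.073. Averaged over mice it was -0.027 ± 0.15 (SD, n = 4) under placebo and 0.027 ± 0.23 (SD, n = 4) under NBC, so the groups overlapped widely.

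**Figure D4:**
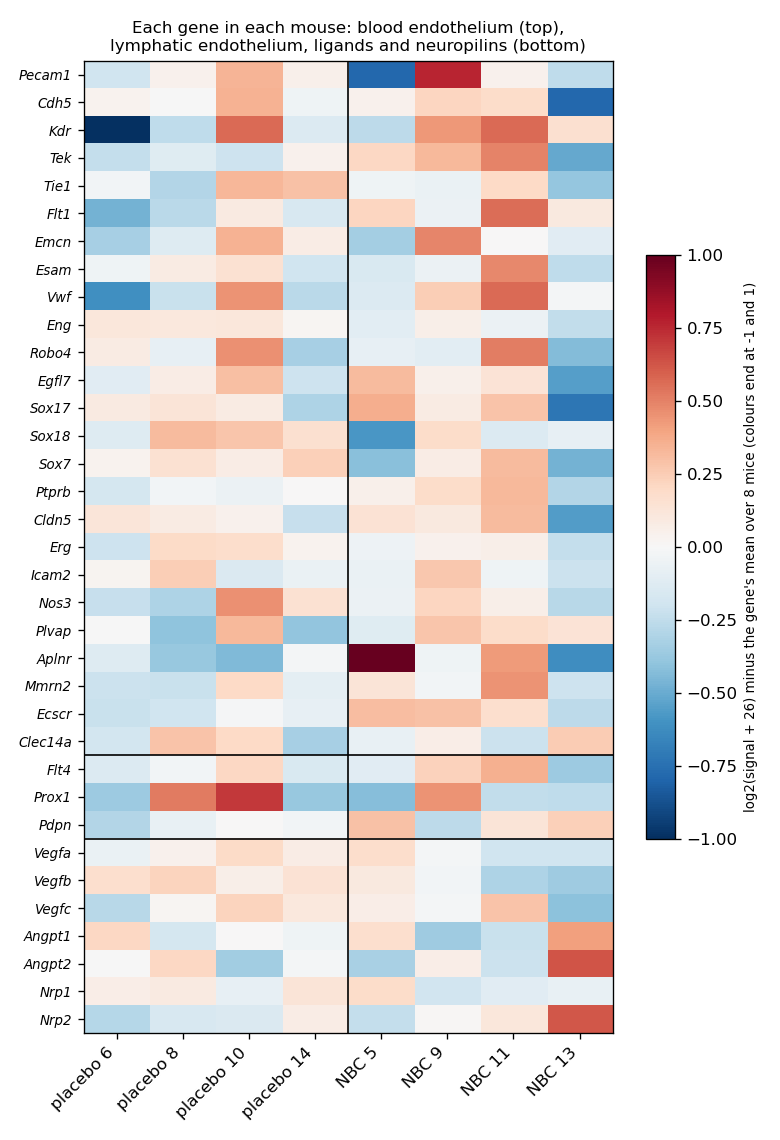
Each cell is the log2(signal + 26) of a gene in a mouse minus that gene's mean over the 8 mice, with blood endothelial genes above the first line, the lymphatic genes between the lines and ligands and neuropilins below. Most blood endothelial genes are blue in NBC mouse 13 and red in NBC mouse 11, whereas Nrp2, Angpt2 and Angpt1 are red in NBC mouse 13.

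The ligands and neuropilins were divided. NBC mouse 13 was the highest of all mice for Nrp2, Angpt2 and Angpt1 and the lowest for Vegfa, Vegfb and Vegfc. The SD of the log2 values was larger in NBC than in placebo mice for 27 of the 35 genes, and in 7 of the 7 ligands and neuropilins, against 64.6% of all probe sets tested. The median SD over the 35 genes was 0.20 in placebo and 0.32 in NBC mice, beside 0.20 and 0.26 over all probe sets.

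A second list of 25 endothelial genes that share no member with the first, among them Cd34, Mcam, Adgrf5, Ramp2 and Fli1, showed the same mice at the ends. NBC mouse 13 was the lowest in 11 and NBC mouse 11 the highest in 12 of these genes, and their mean deviations were -0.13 and 0.20, with the other 6 mice between -0.067 and 0.040. Of the 9 mural cell markers, which cover the muscle cells and pericytes of vessel walls, NBC mouse 13 was the lowest in 4 and NBC mouse 11 the highest in 4. Mural deviations ran from -0.19 (placebo mouse 14) to 0.27 (NBC mouse 11), with NBC mouse 13 at -0.13.

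Markers of other cells were set beside this order. All 7 macrophage markers were measured, none at 0, and 7 of 7 had a difference above 0 (median 0.21), as did 47.9% of all probe sets tested. Their summed signal was 98179 to 141540 in placebo and 123976 to 193284 in NBC mice. NBC mouse 13, lowest for blood endothelium, had the highest value of 6 of the 7. Placebo mouse 10, second highest for blood endothelium, had the lowest of 6 of the 7. The other mice did not follow this reversed order throughout. The mean macrophage deviation was -0.092, 0.086, -0.45 and 0.019 in placebo mice 6, 8, 10 and 14. In NBC mice 5, 9, 11 and 13 it was -0.12, 0.15, -0.066 and 0.48. The part of macrophages in the endothelial values was not tested. All 8 skeletal muscle markers were measured and had a difference above 0 (median 3.92), with a summed signal of 4002 to 20584 in placebo and 15312 to 143413 in NBC mice. Their mean deviation was 2.69 in NBC mouse 13, 2.86 in NBC mouse 11, 2.73 in NBC mouse 5 and -0.84 in NBC mouse 9, beside -3.03 to -0.44 in the placebo mice. The part of muscle in the endothelial values was not tested.

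Of all probe sets tested 47.9% had a difference above 0. The 9 mural markers all had a difference above 0 (median 0.088), and Pdgfrb, the receptor that recruits pericytes, was the 1 of them without overlap (0.57, SE 0.13). All 6 fibroblast markers lay above 0 as well (median 0.19), and Col1a1 and Pi16 were without overlap. The macrophage marker Csf1r (0.33, SE 0.13) and the adipocyte marker Lipe (-0.19, SE 0.11) were also without overlap, as were 3.85% of all probe sets tested. The lists were chosen with earlier results of these data known, so no conclusion is drawn from setting these genes beside that share. The summed fibroblast signal was 115464 to 133094 in placebo and 136855 to 147753 in NBC mice. All 5 adipocyte markers measured lay below 0 (median -0.056), with a summed signal of 316175 to 375768 and 309473 to 353408. The 5 lymphocyte markers measured lay below 0 (median -0.63), and their summed signal of 1110 and 1120 in NBC mice 11 and 13 was under the 3148 to 6675 of the other 6 mice. The other lists were mixed, with 1 of 2 erythroid, 2 of 5 keratinocyte and 2 of 3 Schwann cell markers above 0. In these marker lists 0 genes passed after adjustment, and the part of these cells in the endothelial values was not tested.

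For platelets, which share Vwf and Pecam1 with endothelium, 4 of 5 listed markers were measured, with Gp9 below the filter. Of these, 2 lay above and 2 below 0 (median 0.014). Their summed signal was 13979 to 15973 in placebo and 15099 to 18953 in NBC mice. That sum is mostly Pf4, which read 17608 of the 18953 in NBC mouse 13, the highest. Ppbp was lowest of all mice there (183.4). Pf4 was lowest in placebo mouse 10 (12990), and most of the macrophage markers had the same mice at both ends. The sum thus follows Pf4 and is not a reading of platelets by itself. Whether the Pf4 signal came from platelets or from other cells was not tested. The mean deviation of the platelet markers was -0.014 in NBC mouse 13 and ran from -0.32 (placebo mouse 10) to 0.36 (placebo mouse 6). The part of platelets was not tested. The Gapdh 3′ to 5′ signal ratio, which rises as RNA breaks down, was 0.92 to 1.04 in placebo mice and 1.47, 0.84, 1.28 and 1.11 in NBC mice 5, 9, 11 and 13. The Actb ratio was 1.51 to 1.74 in placebo mice and 2.10, 1.51, 1.82 and 1.56 in the same NBC mice. The part of RNA quality in these results was not tested.

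**Figure D5:**
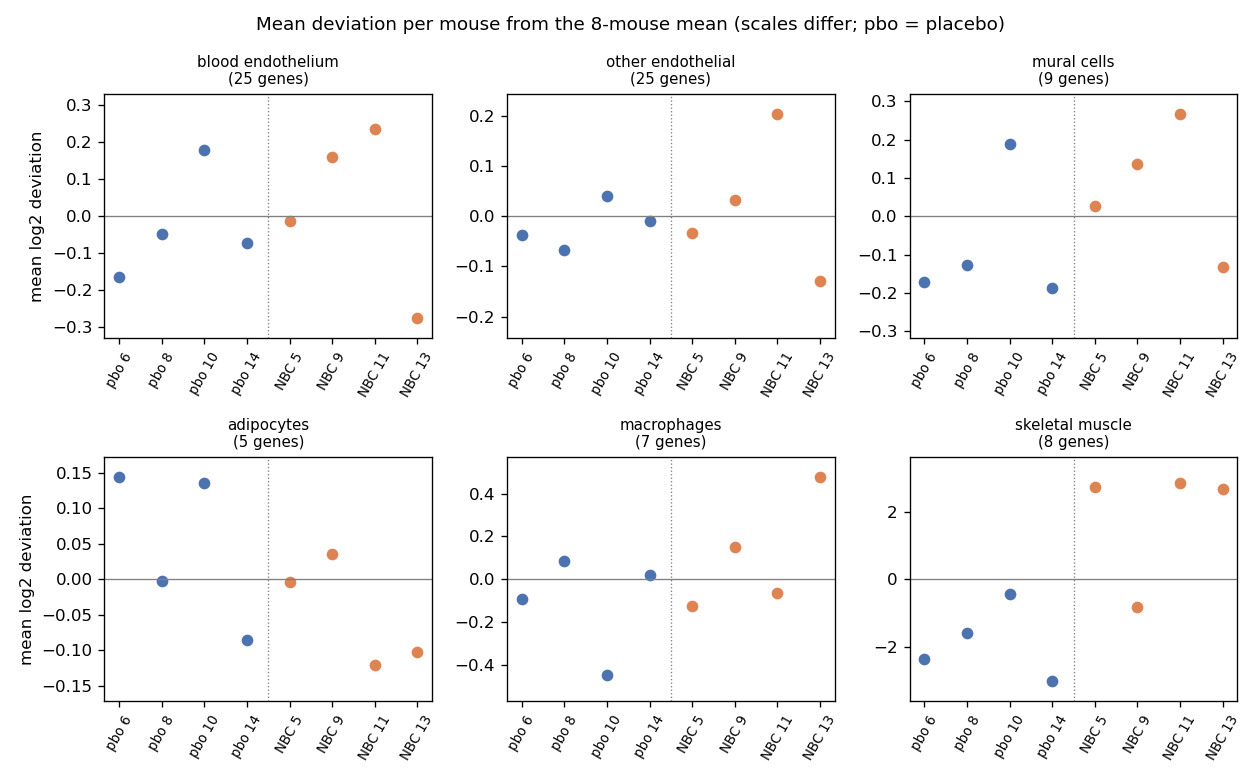
The mean log2 deviation from the 8-mouse mean is plotted per mouse for 6 lists of genes, placebo on the left and NBC on the right of each panel, on scales that differ between panels. Both endothelial panels have NBC mouse 13 lowest and NBC mouse 11 highest, while the skeletal muscle panel has NBC mice 5, 11 and 13 together between 2.69 and 2.86.

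Of the Notch and arterial-venous genes, 13 of 15 lay above the filter and 0 passed after adjustment. Of the 15, 11 lay above and 4 below 0, with a median of 0.063. Efnb2, the ephrin of arterial endothelium, averaged 894 ± 216 and 1454 ± 337 (SD, n = 4 each), which is a difference on the log2 scale of 0.68 (SE 0.22, limma unadjusted p = 0.012), and NBC mouse 13 (995) overlapped placebo mouse 6 (1206). Nr2f2, a factor of venous identity, differed by -0.30 (SE 0.14), and the Notch ligand Dll1 by 0.37 (SE 0.20). Of the other lymphatic genes, 6 of 7 were measured, 2 above and 4 below 0 with a median of -0.11, and 4 lay above the filter, of which 0 passed after adjustment. Mmrn1, a secreted protein of lymphatic vessels, differed by -0.65 (SE 0.28, limma unadjusted p = 0.044) and the hyaluronan receptor Lyve1, which macrophages also carry, by -0.21 (SE 0.18). Reln, a secreted glycoprotein of lymphatic vessels, differed by -0.20 (SE 0.24).

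Of the other angiogenic factors, 18 of 20 were measured and 16 lay above the filter, and 0 passed after adjustment. Of the 18, 8 differences lay above and 10 below 0, with a median of -0.0062. Thbs1, an inhibitor of angiogenesis, was the only 1 of the 16 without overlap, a mark that 3.85% of all probe sets tested reached. Its difference was -1.08 (SE 0.26, limma adjusted p = 0.653). Thbs2, a related inhibitor, differed by -0.34 (SE 0.24), and the oxygen-sensing factor Hif1a by 0.21 (SE 0.14). In the second endothelial list 17 of 25 lay above 0 (median 0.087) and 0 of the 24 tested passed after adjustment. Rasip1, a regulator of endothelial lumen formation, read 1099 to 1412 in placebo and 628 to 982 in NBC mice (-0.50, SE 0.17, limma unadjusted p = 0.015). Cd34, a sialomucin of endothelial and stromal progenitor cells, was the other without overlap (0.34, SE 0.16) and was named after its values were seen. Thus 2 of the 24 were without overlap and 2 had an unadjusted p under 0.05. Of all probe sets tested, 3.85% and 6.22% did. Palmd differed by -0.37 (SE 0.15) and Nostrin, which traffics Nos3, by 0.43 (SE 0.19).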

How the data were processed

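Each of the 8 mice gave 1 Affymetrix Mouse Genome 430 2.0 array of subcutaneous fat. The deposited values are the linear intensity (signal) of each probe set. The submitters' processing notes name MAS5 without a version, and every array had a mean of 1500.01 after trimming 2% from both tails. Of 45101 probe sets, 64 are controls, 34945 name 1 gene, 932 several and 9160 none in the platform annotation. A gene was represented by the probe set naming it alone with the highest mean log2(signal + 26). With R 4.3.3 and limma 3.58.1, log2(signal + 26) was fitted with lmFit and eBayes, NBC minus placebo, on the 22519 probe sets whose mean was at or above the median (a signal of 275), with Benjamini-Hochberg adjustment over all of them and a threshold of 0.05. Intervals are 95%. SEs and differences are on this log2 scale, which understates changes of dim probe sets. Signals of different probe sets were not compared as levels of expression; they served to choose probe sets and the brightest genes and were added up in marker sums, which the brightest probe sets dominate. The fit was checked on simulated data with independent noise in each probe set, where it missed part of the changes put in. The labels give no batch. The mice carry separate numbers, and Spearman correlations between arrays were 0.941 to 0.975.

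The members and lists were chosen with earlier results of these data known. Named with every mouse's value were genes without overlap, those with an unadjusted p under 0.05, the 3 largest differences of each of the 3 groups of genes and the 3 brightest of blood endothelium. Of each related list up to 3 genes of smallest p were named; genes outside this rule are given for their role. The alternatives were pseudocounts of 1 and 128, no filter, a filter at the 75th percentile, quantile normalization, centring arrays on the median, the mean of a gene's probe sets, a trended robust prior and leaving out each mouse. Promoters are from RefSeq (GRCm38.p6). Protein sequences were not used here.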

Additional observations from a re-analysis of the deposited data

Results flagged for a closer look

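Of 70 groups of 4 values (35 genes in 2 groups of mice), 2 held 1 mouse far from the other 3, where about 1 in 20 groups would by chance. Eng, endoglin, read 4546, 4529 and 4542 in placebo mice 6, 8 and 10 and 4275 in placebo mouse 14, a gap of 0.939 of the group's range against a critical value of 0.829. Sox17, an arterial SOXF factor, read 2373, 2450 and 2359 in the same mice and 1795 in placebo mouse 14, a gap of 0.879 of the range. Both genes were lower still in NBC mouse 13, at 3536.5 and 1345.5.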

How the results depend on the processing

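In all 16 alternatives 0 of the genes passed after adjustment by limma. Probe sets past the threshold were 0 to 18 over the 8 fits that left out a mouse (18 without NBC mouse 9, none of the 35 genes among them). Genes at an unadjusted p under 0.05 were 1 in the reported fit, 0 without a filter, 2 with the filter at the 75th percentile and with the trended robust prior (Flt1 and Vegfb), 0 with arrays centred on the median, 1 with the mean of all probe sets (Ptprb in place of Flt1), and 0 to 4 with a mouse left out: 4 without placebo mouse 10 or NBC mouse 9, 3 without NBC mouse 13 and 0 without placebo mice 6, 8 or 14. Genes without overlap were 1 with centred arrays (Eng) and 0 to 3 with a mouse left out (3 without placebo mouse 10, NBC mouse 9 or NBC mouse 13, 1 without placebo mouse 14 or NBC mouse 5). The shares of 6.22% and 3.85% of all probe sets hold for 4 mice against 4. Shares for the fits with a mouse left out are not given here. Groups of 3 and 4 mice separate more easily by chance, so no conclusion is drawn from these counts. The median of the ligands and neuropilins was 0.152 with the mean of all probe sets. That median is the value of Angpt1, which was 0.0021 by its brightest probe set. Its mean takes in 1421441_at, a probe set below the filter with a difference of 0.303. The group signals there were only 13.8 (placebo) and 24.6 (NBC). Nrp1, whose probe sets all lay above the filter, moved from -0.099 to 0.206. A mean of only the probe sets above the filter was not tested. The sign turned with centred arrays for Esam (-0.0073), Sox17 (-0.0049) and Angpt1 (-0.010), and with the mean of all probe sets for Egfl7 (0.136), Sox17 (-0.104), Sox7 (0.139) and Nrp1 (0.206). With a mouse left out, the ranges crossing 0 were Pecam1 -0.393 to 0.124, Cdh5 -0.272 to 0.0625, Emcn -0.14 to 0.137, Esam -0.155 to 0.091, Robo4 -0.239 to 0.0828, Egfl7 -0.137 to 0.153, Sox17 -0.114 to 0.249, Cldn5 -0.11 to 0.182, Icam2 -0.123 to 0.0492, Nos3 -0.142 to 0.113, Clec14a -0.0926 to 0.114, Flt4 -0.0553 to 0.183, Vegfc -0.138 to 0.093, Angpt1 -0.133 to 0.12 and Angpt2 -0.116 to 0.199. Over all alternatives 18 genes kept their sign and 17 did not. No paired analysis was possible because the groups share no mouse number. Signal over background limits Prox1.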

Other observations

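A list of 12 genes was drawn up for fatty acid handling in fat capillaries, and all 12 lay above the filter. Of these, 3 had a difference above 0 and 9 below, with a median of -0.031. After adjustment by limma 0 passed (0 at an unadjusted p under 0.05). In whole fat, capillary and adipocyte transcripts of this list cannot be told apart, and all 5 adipocyte markers measured also lay below 0. Aqp7, the glycerol channel, differed by -0.48 (SE 0.25), and read 3454 to 5771 in placebo and 2310 to 5042 in NBC mice. Rbp7, a retinol-binding protein of fat capillaries, differed by -0.39 (SE 0.23) and the protease inhibitor Timp4 by -0.19 (SE 0.16). All 5 genes of endothelial activation had a difference above 0, with a median of 0.13, where 47.9% of all probe sets tested lay above 0. Sele, read at 14.8 to 195.4, lay below the filter. After adjustment by limma 0 of the 4 above it passed (0 at an unadjusted p under 0.05). The leukocyte adhesion molecules Icam1 and Vcam1 differed by 0.13 (SE 0.13) and 0.12 (SE 0.14), and the chemokine receptor Ackr1 of venules by 0.17 (SE 0.20).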
